A study of Caenorhabditis elegans with 9 samples.

Results

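The transcripts described here are those of 39 *C. elegans* genes for autophagy, the lysosomal membrane and target of rapamycin complex 1 (TORC1), out of 46926 genes in the deposited count table. They were taken by symbol, from a list drawn up with earlier results of these data known. Of them, 27 act in forming, loading or closing the autophagosome, and *hlh-30* and *mxl-3* encode transcription factors of lysosomal genes. The others are 6 genes for TORC1 or its regulators and effector and 4 for lysosomal membrane proteins. RNA-seq was made of whole wild-type N2 worms raised on HT115 control bacteria and moved at adult day 1 to plates with 10 µg/ml kanamycin, which stops bacterial growth. On these plates the worms had no bacteria (DR0), diluted bacteria (DR1) or undiluted bacteria (*ad libitum*, AL) for 24 h, and each condition has 3 libraries. Kanamycin, strain and age were therefore shared by all 9 libraries, and both restricted conditions are set against the same 3 AL libraries, so that they are not independent of each other. Nothing states that the libraries came from separate cultures, so p-values measure the spread between these libraries, which may be technical.

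Autophagy encloses cytoplasm in a double membrane, the autophagosome, which then fuses with the lysosome. The UNC-51 (ULK) kinase complex starts the process, a phosphatidylinositol 3-kinase complex with BEC-1 marks the membrane, and ubiquitin-like conjugation attaches the Atg8 proteins LGG-1 and LGG-2 to it. TORC1 on the lysosomal surface holds autophagy back when nutrients are plentiful, and HLH-30, the worm orthologue of TFEB, drives transcription of autophagy and lysosome genes in fasted worms. Transcript abundance is not autophagic flux, which was not measured in these libraries.

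Total counts were 9203611 to 12012750 per library, and the lowest count of any of the 39 genes in any library was 45. Values are CPM, read counts relative to the size of the library, scaled by TMM, a normalization that assumes that most genes do not change. Its factors were 0.944 to 0.949 in DR0, 1.16 in DR1 and 0.909 to 0.914 in AL. Log2 fold changes have a standard error (s.e.), and adjusted p-values come from edgeR's quasi-likelihood test with Benjamini-Hochberg adjustment over the 14332 genes tested, which included all 39. "Higher" and "lower" below mean an adjusted p under 0.05, and "upregulated" and "downregulated" also need a log2 fold change over 1 or under −1. Scaling by total counts instead moved the median log2 fold change of all genes to 0.09 in DR0 and 0.38 in DR1 against AL, and to −0.29 in DR0 against DR1. Intestine, germ line, muscle and neuron markers were detected. Of 6 epidermis markers 3 were abundant enough to be tested, while 5 sperm markers summed to 0.893 to 3.102 CPM in any library. The summed CPM of 12 germ line and oocyte markers was 1985 to 2032 in DR0, 1165 to 1217 in DR1 and 3180 to 3277 in AL, with all 12 lower in both restricted conditions. That of 7 intestine markers was 569.8 to 599 in DR0, 446 to 481 in DR1 and 1415 to 1440 in AL, a sum carried by *act-5* (303 CPM in DR0, 205 in DR1 and 922 in AL), and its members went opposite ways: 4 were lower and 2, *ges-1* and *elt-7*, higher in each restricted condition. In whole worms fewer cells of a type and less RNA per cell cannot be told apart. The part of these tissue differences in the values below was not tested.

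The largest rises among the 39 genes were those of *sqst-1*, *unc-51*, *lgg-2*, *hlh-30* and *epg-9* in DR0 and of *atg-2*, *sqst-1* and *epg-5* in DR1, and the largest fall was that of *lmp-2* in both. In DR0 against AL, 17 of the 39 genes were higher and 8 lower, which is 64.1% of them beside 60.6% of all genes tested. The share called was thus close to that of all genes, while the share higher was 43.6% of the 39 beside 29.6% of all genes. In DR1 against AL, 18 were higher and 6 lower, 61.5% beside 60.1% of all genes, with 46.2% higher beside 28.5%. The median log2 fold change of the 39 was 0.12 in DR0 and 0.15 in DR1, against 0.03 for all genes in each. With total-count scaling 21 were higher and 6 lower in DR0, and 32 were higher and 4 lower in DR1, and with quantile normalization the counts were 24 and 4 in DR0 and 28 and 6 in DR1. A gene not called here could thus be called under other settings: of 20 alternatives at least 1 called 7 of the 14 uncalled genes in DR0 against AL, 14 of 15 in DR1 against AL and 12 of 13 in DR0 against DR1.

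Changes past the fold threshold were few. *unc-51*, *lgg-2* and *sqst-1* were upregulated in DR0, where 11.3% of all genes were, and *atg-2* was upregulated in DR1, where 10.6% of all genes were. *lmp-2* was the only one of the 39 to be downregulated in either condition, beside 8.16% of all genes in DR0 and 8.62% in DR1. Libraries did not overlap between the conditions for 27 of the 39 genes in DR0 against AL, 19 above and 8 below, beside 64.3% of all genes (31.7% above and 32.6% below). In DR1 against AL they did not overlap for 28, 21 above and 7 below, beside 64.8% of all genes (31.5% above and 33.2% below).

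**Figure D1:**
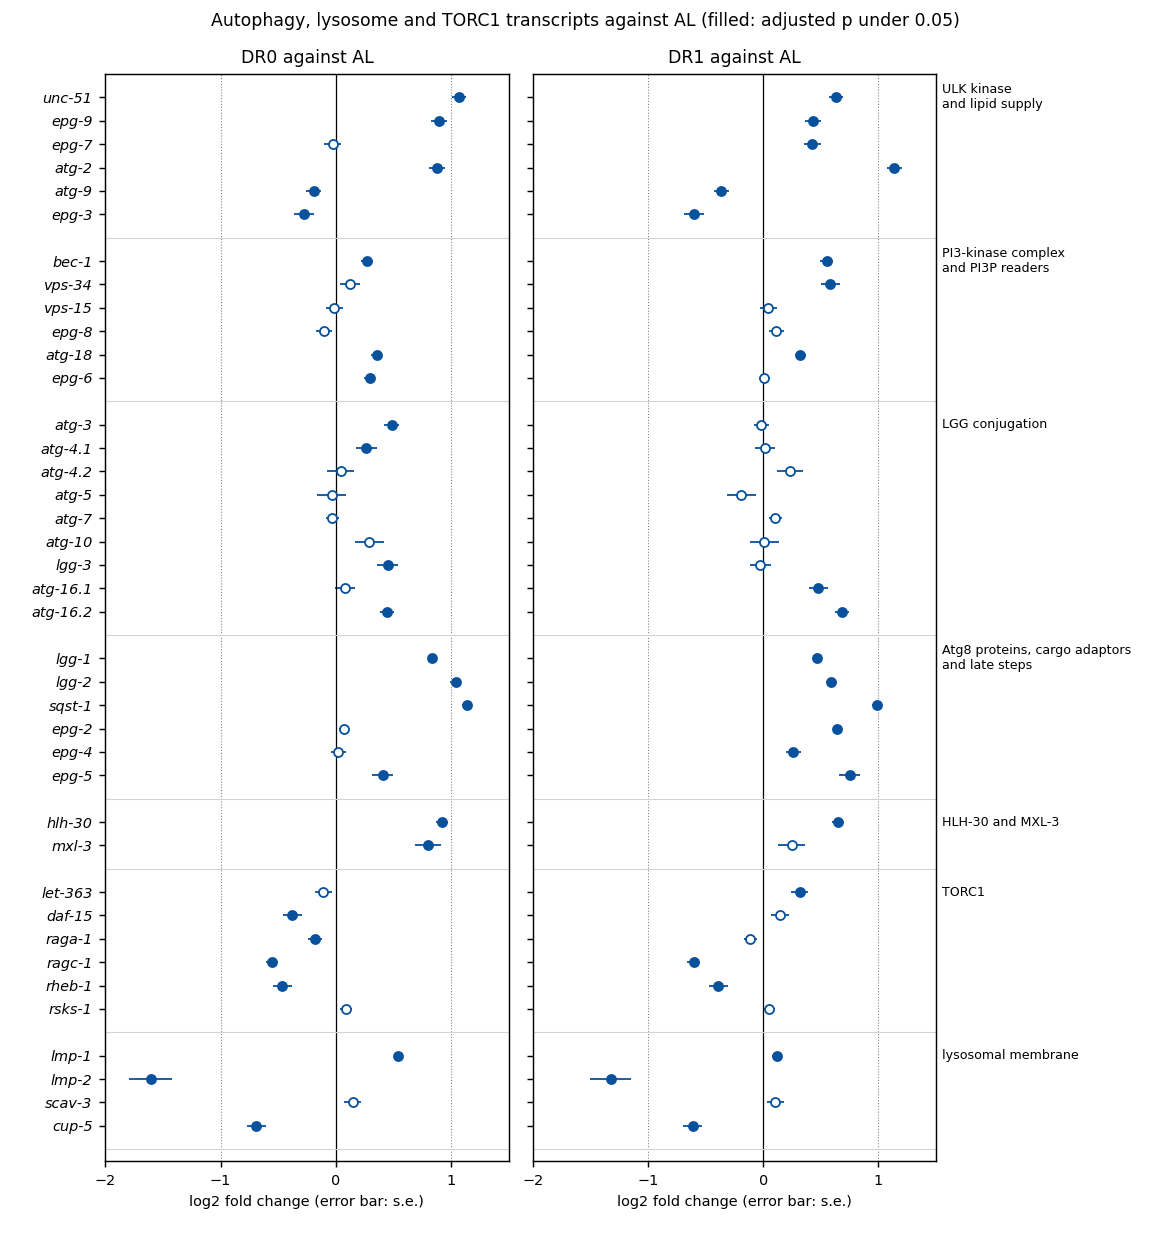
Log2 fold change against AL (x axis, error bar s.e.) of each of the 39 genes (y axis, grouped by role) in DR0 (left) and DR1 (right), filled where the adjusted p was under 0.05. Most filled points lie to the right of 0 in the 4 autophagy groups and for HLH-30, most of those of the TORC1 group lie to the left (with total-count scaling this held in DR0 and not in DR1), and *lmp-2* lies farthest left in both panels.

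Of the 6 genes for the UNC-51 kinase complex and for lipid supply to the growing membrane, 3 were higher and 2 lower in DR0, and 4 were higher and 2 lower in DR1. *unc-51*, the Atg1/ULK kinase that starts autophagosome formation (chromosome V, 19995986 to 20004485, WBcel235), had 150.2, 157 and 152 CPM in DR0, 117, 103 and 118 CPM in DR1, and 74.7, 68.6 and 74.95 CPM in AL. The 3 conditions did not overlap, and the DR0 libraries were the highest. Its log2 fold change against AL was 1.07 in DR0 (s.e. 0.060, adjusted p = 2.37e-13) and 0.63 in DR1 (s.e. 0.060, adjusted p = 3.41e-09).

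*epg-9*, the ATG101 orthologue of the same complex, had 92.2, 90.3 and 91.6 CPM in DR0, 71.3, 63.2 and 64.2 CPM in DR1, and 50.7, 46.9 and 49.6 CPM in AL. It followed *unc-51* in the order of the conditions, again without overlap, with log2 fold changes against AL of 0.90 in DR0 (s.e. 0.066) and 0.43 in DR1 (s.e. 0.066). The scaffold gene *epg-7*, a relative of mammalian FIP200, behaved differently, with 52.4, 61.7 and 62.7 CPM in DR0, 80.9, 83.0 and 78.3 CPM in DR1, and 55.9, 60.2 and 63.7 CPM in AL. DR1 libraries of *epg-7* were above all others, and those of DR0 and AL overlapped: the log2 fold change against AL was −0.02 in DR0 (s.e. 0.074, adjusted p = 0.794) and 0.43 in DR1 (s.e. 0.071, adjusted p = 1.64e-05).

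*atg-2*, which encodes a lipid transfer protein that feeds the growing membrane (chromosome X, 6806763 to 6817266), had 83.9, 86.7 and 78.2 CPM in DR0, 102, 94.1 and 102 CPM in DR1, and 41.1, 48.1 and 46.0 CPM in AL. Both restricted conditions were above AL in every library, and DR1 was above DR0. The fitted log2 fold change against AL was 0.88 in DR0 (s.e. 0.070) and 1.14 in DR1 (s.e. 0.068, adjusted p = 6.20e-13), the largest rise of the 39 genes in DR1. *atg-2* has 7547 exonic bases, and with a trend of the fold changes on exonic length removed its value in DR1 was 0.86.

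*epg-3*, the orthologue of the endoplasmic reticulum protein VMP1, went the other way, with 70.2, 59.2 and 57.7 CPM in DR0, 56.9, 45.2 and 47.2 CPM in DR1, and 69.2, 77.4 and 79.2 CPM in AL. The lowest AL library lay below the highest DR0 library. Set against AL, the log2 fold change came to −0.27 in DR0 (s.e. 0.086, adjusted p = 0.00867) and −0.60 in DR1 (s.e. 0.086, adjusted p = 2.17e-06). Without DR0 replicate 3 the DR0 call of *epg-3* was lost (−0.22, adjusted p = 0.0594). *atg-9*, a membrane protein of the vesicles that seed autophagosomes, was also lower in both, by −0.19 in DR0 and −0.36 in DR1 on the log2 scale, but its DR0 call was lost under 4 settings (with quantile normalization, −0.03, adjusted p = 0.698) and its DR1 call with total-count scaling (−0.015, adjusted p = 0.845). In both genes AL was highest and DR1 lowest on average, which is also the order of the summed germ line markers. The summed intestine, body wall muscle and epidermis markers had this order too, but each sum rests largely on a single gene. These were *act-5*, *pat-10* (1437 of 2016 CPM on average in AL) and *col-19* (1040 of 1078 CPM). Other markers of each of these lists went other ways.

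Of the 6 genes for the phosphatidylinositol 3-kinase complex and the proteins that read its lipid product, 3 were higher and none lower against AL in each restricted condition. Where a role group had 0 genes called in a direction against AL in edgeR's test, here and below, it had 0 at an unadjusted p under 0.05 too, and 0 with DESeq2 and limma-voom. *vps-34*, the catalytic subunit, had 48.4, 53.9 and 58.4 CPM in DR0, 74.3, 72.9 and 74.2 CPM in DR1, and 47.3, 43.2 and 56.5 CPM in AL. It stood apart in DR1 and not in DR0, with log2 fold changes against AL of 0.12 in DR0 (s.e. 0.087, adjusted p = 0.221) and 0.58 in DR1 (s.e. 0.083, adjusted p = 1.89e-06). Without AL replicate 3 the DR0 value passed too (0.24, adjusted p = 0.0224). *bec-1*, the Beclin 1 orthologue, was higher in both, by 0.27 in DR0 and 0.55 in DR1, while the regulatory subunit *vps-15* (−0.01 and 0.04) and the ATG14 orthologue *epg-8* (−0.10 and 0.11) did not pass the test against AL in either. In DR1, however, *epg-8* was higher under 5 of 20 other settings, among them the fit without DR1 replicate 2 (0.21, adjusted p = 0.00204), and *vps-15* under 2.

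The 2 lipid-binding WIPI relatives had different calls in DR1. *atg-18* had 223, 215 and 225 CPM in DR0, 216, 209.6 and 222 CPM in DR1, and 173, 163 and 182 CPM in AL. Its restricted libraries overlapped with each other and all lay above AL, with log2 fold changes of 0.36 in DR0 (s.e. 0.048, adjusted p = 9.53e-07) and 0.32 in DR1 (s.e. 0.048, adjusted p = 3.38e-06). *epg-6* had 130.2, 129 and 129 CPM in DR0, 103, 109 and 107 CPM in DR1, and 105, 105 and 106 CPM in AL, so that DR0 alone stood apart. On the log2 scale, the change against AL was 0.30 in DR0 (s.e. 0.050, adjusted p = 1.94e-05) and 0.01 in DR1 (s.e. 0.050, adjusted p = 0.861).

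Of the 9 genes for the conjugation of LGG proteins, 4 were higher in DR0, 2 in DR1, and none was lower in either. Several did not pass edgeR's test as described above: *atg-4.2*, *atg-5*, *atg-7* and *atg-10* were called there in none of the 3 comparisons. Among them *atg-7*, the E1-like enzyme on which both conjugation reactions depend, averaged 102 ± 8.37 CPM in DR0, 112 ± 2.36 CPM in DR1 and 104 ± 4.35 CPM in AL (SD, n = 3 each). Its log2 fold change against AL was −0.03 in DR0 (s.e. 0.060) and 0.10 in DR1 (s.e. 0.059). *atg-10*, the E2-like enzyme for LGG-3, had 0.29 in DR0 (adjusted p = 0.0523) and passed under 11 of 20 other settings, among them limma-voom (0.31, adjusted p = 0.0443) and 5 of the fits that left out 1 library (adjusted p from 0.0359 to 0.0474), and in DR0 against DR1 without DR1 replicate 1 (0.40, adjusted p = 0.0249). *atg-7* was lower in DR0 than in DR1 without DR0 replicate 2 (−0.20, adjusted p = 0.0160). In DR1 against AL, *atg-4.2* and *atg-7* were each higher under 4 of 20 other settings, among them a mean CPM of at least 5.

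*atg-3*, the E2-like enzyme that attaches LGG-1 and LGG-2 to lipid, had 92.7, 86.9 and 86.5 CPM in DR0, 58.0, 66.8 and 63.3 CPM in DR1, and 61.6, 66.4 and 62.3 CPM in AL. Only DR0 stood apart, with log2 fold changes against AL of 0.48 in DR0 (s.e. 0.066, adjusted p = 1.04e-06) and −0.01 in DR1 (s.e. 0.066, adjusted p = 0.861). *lgg-3*, the ATG12 orthologue, and *atg-4.1*, a protease that trims LGG proteins, had the same calls, with log2 fold changes of 0.45 and 0.27 in DR0 and −0.02 and 0.01 in DR1. The *atg-4.1* call in DR0 was lost without AL replicate 1 (0.23, adjusted p = 0.0525) and without AL replicate 2 (0.19, adjusted p = 0.0924). Exons of *atg-4.1* overlap those of a gene on the opposite strand by 100 bases, and reads were counted without regard to strand.

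The 2 ATG16 orthologues, which hold the conjugation complex on the membrane, were the conjugation genes higher in DR1. *atg-16.1* had 40.8, 38.6 and 39.6 CPM in DR0, 56.1, 48.4 and 52.1 CPM in DR1, and 40.2, 33.5 and 38.4 CPM in AL. *atg-16.2* had 103, 94.9 and 97.8 CPM in DR0, 117, 117 and 115.5 CPM in DR1, and 79.4, 66.4 and 71.8 CPM in AL. Both were highest in every DR1 library, but DR0 overlapped AL for *atg-16.1* alone. The log2 fold change of *atg-16.1* against AL was 0.08 in DR0 (adjusted p = 0.422) and 0.48 in DR1 (adjusted p = 2.53e-05), and that of *atg-16.2* was 0.44 in DR0 (adjusted p = 1.98e-06) and 0.69 in DR1 (adjusted p = 1.03e-09).

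All 6 genes for Atg8 proteins, cargo adaptors and late steps were higher in DR1, and 4 were higher in DR0. *lgg-1*, the GABARAP-like Atg8 protein that coats autophagosomes (chromosome II, 6346960 to 6347719), had 3045, 2903 and 2967 CPM in DR0, 2295, 2347 and 2266 CPM in DR1, and 1672, 1645 and 1692 CPM in AL. The conditions were well separated, with DR0 highest. The fitted log2 fold change against AL was 0.83 in DR0 (s.e. 0.028, adjusted p = 7.88e-18) and 0.46 in DR1 (s.e. 0.028, adjusted p = 5.28e-13), and with quantile normalization the DR1 value was 1.119, past the fold threshold. *lgg-1* made up 40.0% of the summed CPM of the 39 genes in DR0, 35.2% in DR1 and 32.5% in AL.

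*lgg-2*, the LC3-like Atg8 protein (chromosome IV, 10934196 to 10935903), had 452, 465 and 464 CPM in DR0, 336, 326 and 350.1 CPM in DR1, and 226, 209 and 236 CPM in AL. Its order matched that of *lgg-1*, with log2 fold changes against AL of 1.04 in DR0 (s.e. 0.046, adjusted p = 2.65e-15) and 0.59 in DR1 (s.e. 0.046, adjusted p = 9.09e-11). Without AL replicate 2 its value in DR0 was 0.99, under the fold threshold.

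*sqst-1*, the p62 orthologue that brings ubiquitinated cargo to Atg8 proteins (chromosome IV, 12034282 to 12036891), had 489, 512 and 508 CPM in DR0, 465, 429.8 and 459 CPM in DR1, and 236, 219 and 229 CPM in AL. Every restricted library lay far above the AL libraries, and DR0 and DR1 lay near each other. Set against AL, the log2 fold change came to 1.14 in DR0 (s.e. 0.044, adjusted p = 1.27e-16) and 0.99 in DR1 (s.e. 0.043, adjusted p = 1.61e-15). The DR1 value lay just under the fold threshold and passed it under 7 of 20 other settings, among them the fits without DR1 replicate 2 and without AL replicate 1.

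*epg-2*, a nematode scaffold protein that brings PGL granules into autophagosomes in embryos, had 278, 266 and 278 CPM in DR0, 409.6, 402 and 412 CPM in DR1, and 265, 259 and 259 CPM in AL. Its rise was seen in DR1, at 0.64 on the log2 scale (s.e. 0.040, adjusted p = 1.26e-12), and DR0 had 0.07 (s.e. 0.041, adjusted p = 0.132). *epg-4*, the EI24 orthologue, was likewise higher in DR1 alone (0.26, and 0.02 in DR0), and *epg-5*, which tethers autophagosomes to lysosomes, was higher in both (0.41 in DR0 and 0.75 in DR1, or 1.10 in DR1 with total-count scaling).

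**Figure D2:**
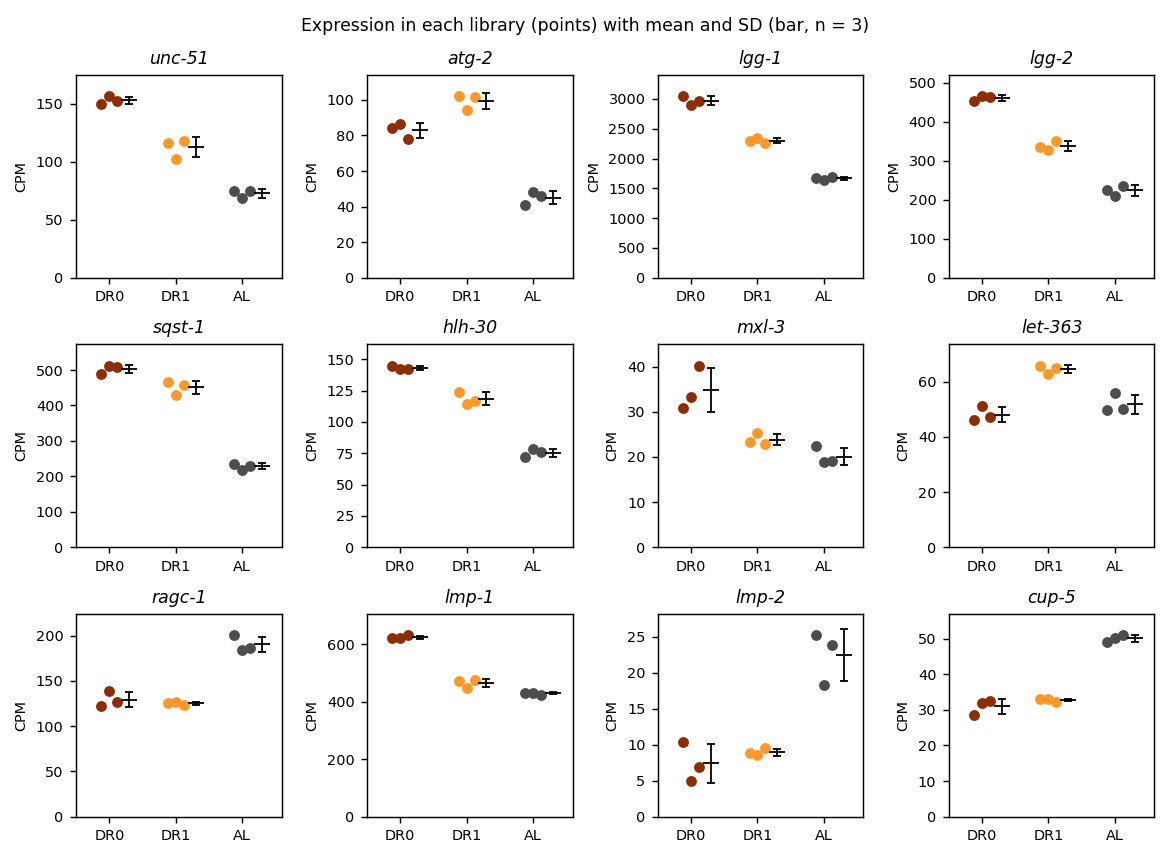
CPM (y axis, from 0) of 12 of the genes in each library (points) of DR0, DR1 and AL (x axis), with the mean and SD of each condition (bar, n = 3). *unc-51*, *lgg-1*, *lgg-2*, *sqst-1*, *hlh-30* and *lmp-1* step down in these TMM-scaled values with DR0 highest and AL lowest, *atg-2* and *let-363* peak in DR1, and *ragc-1*, *lmp-2* and *cup-5* are highest in AL.

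*hlh-30* encodes the TFEB orthologue (chromosome IV, 4014793 to 4034951) and had 145, 141.9 and 141.9 CPM in DR0, 124, 114 and 117 CPM in DR1, and 72.2, 78.4 and 75.8 CPM in AL. The 3 conditions did not overlap. On the log2 scale, the change against AL was 0.92 in DR0 (s.e. 0.054, adjusted p = 5.69e-13) and 0.65 in DR1 (s.e. 0.054, adjusted p = 2.78e-10). *mxl-3*, a Max-like factor known in worms to oppose HLH-30 at lysosomal lipase genes when food is present, had 30.9, 33.4 and 40.2 CPM in DR0, 23.3, 25.3 and 22.9 CPM in DR1, and 22.3, 18.8 and 19.1 CPM in AL. Its libraries did not overlap either, but only DR0 passed the test, with log2 fold changes of 0.80 in DR0 (s.e. 0.11, adjusted p = 1.83e-06) and 0.25 in DR1 (s.e. 0.11, adjusted p = 0.0666). Without AL replicate 1 the DR1 value of *mxl-3* also passed (0.32, adjusted p = 0.0375).

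Of the 6 TORC1 genes none was higher and 4 were lower in DR0, and 1 was higher and 2 were lower in DR1. With total-count scaling 1 was higher and 3 lower in DR0, and 4 were higher and 1 lower in DR1, so that the direction in DR1 depended on the scaling, and with quantile normalization the counts were 1 and 2 in DR0 and 3 and 2 in DR1. *let-363*, the TOR kinase itself, had 46.0, 51.2 and 47.0 CPM in DR0, 65.7, 62.9 and 64.8 CPM in DR1, and 49.6, 55.8 and 50.2 CPM in AL. It was highest in the DR1 libraries, with log2 fold changes against AL of −0.11 in DR0 (s.e. 0.073, adjusted p = 0.212) and 0.32 in DR1 (s.e. 0.070, adjusted p = 0.000456). It is the longest of the 39 genes, with 8560 exonic bases, and with the trend on exonic length removed its value in DR1 was 0.0077 and the call was lost (adjusted p = 0.933).

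*daf-15*, the Raptor orthologue that holds substrates to TOR, had 40.8, 41.8 and 45.2 CPM in DR0, 60.1, 56.1 and 67.2 CPM in DR1, and 54.6, 53.7 and 57.6 CPM in AL. It was below the other libraries in DR0, and DR1 overlapped AL. Its log2 fold change against AL was −0.38 in DR0 (s.e. 0.079, adjusted p = 0.000272) and 0.15 in DR1 (s.e. 0.075, adjusted p = 0.0964). Without DR1 replicate 2 it was higher in DR1 (0.21, adjusted p = 0.0242). Its DR0 call was lost with quantile normalization (adjusted p = 0.0753), and 107 of its exonic bases overlap a collagen gene on the opposite strand.

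*ragc-1*, a Rag GTPase that brings TORC1 to the lysosome when amino acids are present, had 123, 139 and 126 CPM in DR0, 125, 127 and 124 CPM in DR1, and 200.2, 184 and 186 CPM in AL. The restricted libraries overlapped each other and all lay below AL, with log2 fold changes of −0.56 in DR0 (s.e. 0.053, adjusted p = 3.64e-09) and −0.60 in DR1 (s.e. 0.052, adjusted p = 5.91e-10). The GTPase gene *rheb-1*, whose product switches TORC1 on, was also lower in both (−0.46 in DR0 and −0.39 in DR1), although its DR1 call was lost with total-count scaling (adjusted p = 0.662). The other Rag GTPase gene *raga-1* was lower in DR0 alone, by −0.18 (adjusted p = 0.0117). That call was lost under 5 settings, among them the fits without DR0 replicate 1 (adjusted p = 0.0541) and without AL replicate 3 (adjusted p = 0.0575). The S6 kinase gene *rsks-1* had log2 fold changes of 0.09 in DR0 and 0.05 in DR1 and was not called, but it was higher in DR0 under 5 of 20 other settings and in DR1 under 3, among them total-count scaling (0.14, adjusted p = 0.0251 in DR0, and 0.40, adjusted p = 7.45e-07 in DR1). With quantile normalization *ragc-1*, *rheb-1* and 2 lysosomal membrane genes were the genes left lower in DR0.

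Among the 4 lysosomal membrane genes, the relatives *lmp-1* and *lmp-2* went opposite ways. *lmp-1*, a LAMP-like glycoprotein of the lysosomal membrane, had 621, 621 and 631 CPM in DR0, 472, 447 and 474 CPM in DR1, and 431, 431 and 425 CPM in AL. The fitted log2 fold change against AL was 0.54 in DR0 (s.e. 0.037, adjusted p = 1.24e-11) and 0.12 in DR1 (s.e. 0.037, adjusted p = 0.0104), where quantile normalization gave 0.61. *lmp-2*, its relative (chromosome X, 1125615 to 1128307), had 10.4, 4.97 and 6.95 CPM in DR0, 8.85, 8.57 and 9.53 CPM in DR1, and 25.2, 18.4 and 23.9 CPM in AL. All restricted libraries of *lmp-2* lay below all AL libraries, the reverse of *lmp-1*. Its log2 fold change was −1.61 in DR0 (s.e. 0.19, adjusted p = 1.07e-07) and −1.32 in DR1 (s.e. 0.18, adjusted p = 7.76e-07), and −0.98 in DR1 with total-count scaling. Without DR0 replicate 1 *lmp-2* was also lower in DR0 than in DR1 (−0.58, adjusted p = 0.0291).

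*cup-5*, the worm mucolipin, a cation channel of lysosomes, averaged 31.0 ± 2.09 CPM in DR0, 32.7 ± 0.352 CPM in DR1 and 50.03 ± 0.954 CPM in AL (SD, n = 3 each). It was lower in both, by −0.69 in DR0 and −0.61 in DR1. *scav-3*, a LIMP-2 relative that keeps lysosomal membranes intact, had 0.15 in DR0 and 0.11 in DR1 and was not called, although its DR0 value passed under 6 of 20 other settings, among them the fit without DR0 replicate 3 (0.22, adjusted p = 0.0194), and its DR1 value under 4.

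DR0 was then set directly against DR1, where 14 of the 39 were higher (21.2% of all genes) and 12 lower (17.8% of all genes), 66.7% of them beside 39% of all genes tested. None passed the fold threshold here or under any alternative, beside 1.44% of all genes upregulated and 1.03% downregulated, and the log2 fold changes ran from −0.57 (*epg-2*) to 0.55 (*mxl-3*). The median was 0.03, against 0.01 for all genes. Libraries did not overlap for 26 genes, 14 with DR0 above and 12 with DR0 below, beside 48.5% of all genes (25.3% above and 23.2% below). This split depended on the scaling: with total-count scaling 6 were higher and 24 lower, and with quantile normalization 10 were higher and 16 lower. The share of all genes called depended on their level. With a mean CPM of at least 5 required, 27.6% of the 10007 genes then tested were higher and 27.4% lower, beside 13 and 13 of the 39.

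The share of all genes tested with each combination of calls, here and below, was not counted. The sizes of the sets given thus have no background beside them. In all, 7 genes formed a graded set that was higher in DR1 than AL and higher again in DR0 than DR1: *unc-51*, *epg-9*, *lgg-1*, *lgg-2*, *sqst-1*, *hlh-30* and *lmp-1*. Their log2 fold changes between DR0 and DR1 ran from 0.16 for *sqst-1* (s.e. 0.042, adjusted p = 0.00462) to 0.47 for *epg-9* (s.e. 0.063, adjusted p = 1.75e-06). *unc-51* (0.44, s.e. 0.057) and *epg-9* kept this call under all 20 other settings. The value of *lgg-1* was 0.37 (s.e. 0.027) and −0.31 with quantile normalization, that of *sqst-1* was −0.21 with quantile normalization and −0.14 with total-count scaling, and that of *hlh-30* was 0.27 (s.e. 0.051) and −0.020 with total-count scaling. *lgg-2* (0.45) lost the call with quantile normalization, at 0.10, and *lmp-1* (0.43) had −0.0034 there.

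Another 5 genes were higher in DR0 than in both other conditions, with no call between DR1 and AL. These were *epg-6*, *atg-3*, *atg-4.1*, *lgg-3* and *mxl-3*, with values between DR0 and DR1 of 0.28, 0.50, 0.25, 0.48 and 0.55, and *atg-3* alone of them kept the call under all 20 other settings. That of *epg-6* was −0.0083 with total-count scaling. The call of *atg-4.1* was lost in 4 of the fits that left out 1 library, with adjusted p from 0.0626 to 0.0775.

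In contrast, 6 genes peaked in DR1, being higher there than in AL and lower in DR0 than in DR1, with no call between DR0 and AL. These were *epg-7*, *vps-34*, *atg-16.1*, *epg-2*, *epg-4* and *let-363*, with values between DR0 and DR1 of −0.45, −0.46, −0.40, −0.57, −0.24 and −0.42. A further 4, *atg-2*, *bec-1*, *atg-16.2* and *epg-5*, were above AL in both conditions and lower in DR0 than in DR1, by −0.26, −0.28, −0.24 and −0.34. In these genes DR1 was highest, while the summed germ line markers and the summed intestine markers were lowest there. Single intestine markers went different ways, and the part of tissue in these values was not tested.

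Exonic length moved with the difference between DR0 and DR1. Over all 14332 genes Spearman's rho between length and this log2 fold change was −0.39, and the median log2 fold change was 0.31 for 1070 genes under 500 bases and −0.39 for 374 genes of 5000 bases and over. Over the 39 genes rho was −0.53, a description across genes that share the same libraries and are not independent of each other. The 4 genes of the set with 5000 bases and over, *atg-2*, *epg-5*, *let-363* and *daf-15*, had a median of −0.38, close to that of all genes of their length. With the trend removed, an alternative chosen after seeing the data, the value of *atg-2* was 0.12, the calls of *atg-2*, *epg-5*, *let-363* and *lgg-3* were lost, and 15 genes then had a higher and 9 a lower level in DR0. *unc-51* (2897 bases), *hlh-30* (3268 bases) and *epg-3* (3015 bases) were above DR1 in DR0 although the median was −0.17 for genes of 2000 bases to under 3000 and −0.28 for genes of 3000 bases to under 5000, and *epg-2* (2280 bases) was further below, at −0.57. Without DR0 replicate 1 the *epg-3* call was lost (0.24, adjusted p = 0.0533). The part of length in the other differences was not tested beyond this alternative.

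**Figure D3:**
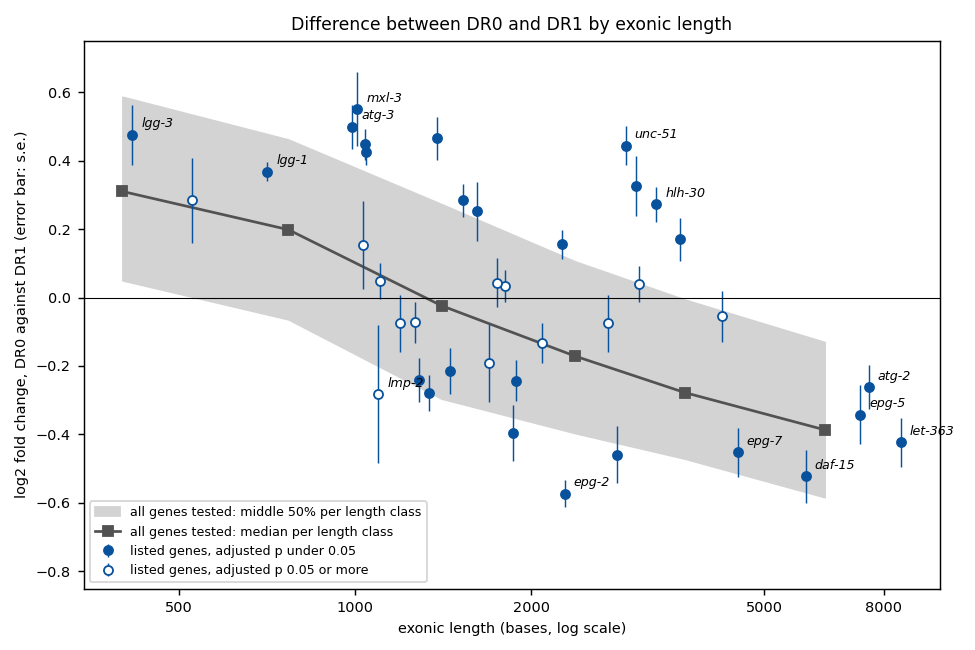
Log2 fold change of DR0 against DR1 (y axis, error bar s.e.) by exonic length in bases (x axis, log scale) for the 39 genes (points, filled where the adjusted p was under 0.05) and for all genes tested (squares, median per length class, with the middle 50% in grey). The squares fall with length to −0.39, the longest genes lie along them, and *unc-51* and *hlh-30* lie above and *epg-2* below.

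Per kilobase of exon, levels of the 39 genes in AL ran from 3.92 CPM per kb (*epg-5*) to 2358 CPM per kb (*lgg-1*), with a median of 37.4. The median was 48.2 CPM per kb in DR0 and 40.2 CPM per kb in DR1. *lgg-1*, *lmp-1* and *lgg-2* were the 3 most abundant in every condition, at 4197 ± 100.4, 598 ± 5.45 and 443 ± 7.18 CPM per kb in DR0, 3252 ± 58.2, 445 ± 14.4 and 325 ± 11.6 CPM per kb in DR1, and 2358 ± 33.6, 411 ± 3.48 and 215 ± 13.3 CPM per kb in AL (SD, n = 3 each). Below them in DR0, the levels of *atg-18* (123 ± 3.01), *lgg-3* (122 ± 14.5), *epg-2* (120.3 ± 2.99) and *ragc-1* (118 ± 7.95 CPM per kb) lay within their spread of each other. *let-363*, *atg-2* and *epg-5* were the 3 lowest in AL, at 6.06 ± 0.405, 5.98 ± 0.478 and 3.92 ± 0.505 CPM per kb, and *let-363* and *atg-2* there did not differ beyond their spread. *lmp-2* was at position 37 of 39 in this order in DR0 and in DR1, against 28 in AL.

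**Figure D4:**
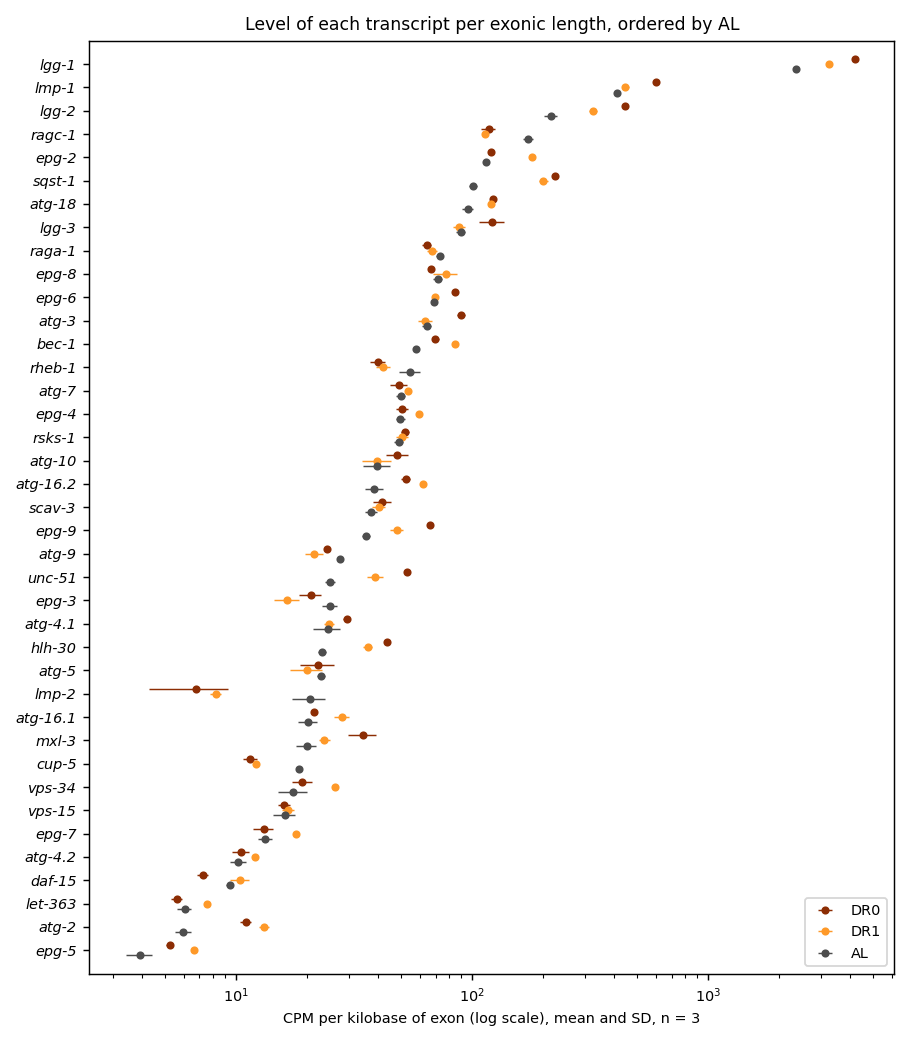
Mean CPM per kilobase of exon (x axis, log scale, error bar SD, n = 3) of each of the 39 genes (y axis, ordered by AL) in DR0, DR1 and AL. *lgg-1* is the most abundant in all conditions, and *lmp-2* is set apart by restricted levels of 6.79 and 8.20 CPM per kb, against 20.5 in AL.

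Ratios within a library, which no scaling factor between libraries changes, were taken for related genes per kilobase. *lmp-1* over *lmp-2* was 62.8, 131 and 95.2 in DR0, 55.9, 54.8 and 52.2 in DR1, and 17.9, 24.6 and 18.6 in AL, with no overlap between conditions. Counts of *lmp-2* were 90, 45 and 70 in DR0 and 97, 94 and 125 in DR1. The cause of the wide DR0 range was not tested. *atg-16.2* over *atg-16.1* was 2.46 ± 0.0363 in DR0, 2.22 ± 0.170 in DR1 and 1.92 ± 0.0631 in AL (SD, n = 3 each), also with no overlap. *lgg-2* over *lgg-1* was 0.106 ± 0.00413 in DR0, 0.0999 ± 0.00530 in DR1 and 0.0913 ± 0.00434 in AL, where DR0 did not overlap AL and DR1 overlapped both. *sqst-1* over *lgg-1* was 0.0532 ± 0.00250 in DR0, 0.0617 ± 0.00355 in DR1 and 0.0429 ± 0.00127 in AL, highest in every DR1 library. *hlh-30* over *mxl-3* overlapped between DR0 (1.28 ± 0.180) and both DR1 (1.53 ± 0.132) and AL (1.17 ± 0.150), while every DR1 library lay above every AL library.

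Other genes of the pathway, 52 taken by a list of the same kind, were called about as often as all genes, at 65.4% in DR0 and 61.5% in DR1 beside 60.6% and 60.1%. In DR0 against AL 14 were higher and 20 lower (26.9% and 38.5%, beside 29.6% and 31.0% of all genes), with a median of −0.10. In DR1 against AL 14 were higher and 18 lower (26.9% and 34.6%, beside 28.5% and 31.6% of all genes), with a median of −0.01. Among 11 further partners and regulators of TORC1 and TORC2, 2 were higher and 5 lower in DR0, and 1 was higher and 6 lower in DR1. Among 6 mitophagy genes, 3 were higher and 2 lower in DR0, and the receptor gene *dct-1*, a BNIP3 relative, was upregulated there (1.00, s.e. 0.064, adjusted p = 2.59e-12). Of 17 genes for lysosomal transporters and lysosome biogenesis, 5 were higher and 7 lower in DR0, and 3 were higher and 6 lower in DR1. The thioesterase gene *ppt-1* was upregulated in DR0 (1.04, s.e. 0.068), and *glo-4*, needed for gut granules, was upregulated in DR1 (1.05, s.e. 0.11). *ncr-2*, a Niemann-Pick C1 relative, was upregulated in DR1 as well, at 1.62 (s.e. 0.56), at the low levels of 1.21 CPM in DR1 and 0.380 CPM in AL. *cln-3.1* was downregulated in both, with 1.68 CPM in DR0, 2.35 CPM in DR1 and 15.4 CPM in AL, and log2 fold changes of −3.17 in DR0 (s.e. 0.26) and −2.71 in DR1 (s.e. 0.24). *cln-3.3* followed, at −1.87 and −1.73. These are relatives of a Batten disease gene, and reads that fit several such copies were not examined. Their relative *cln-3.2* did not follow them: it was higher in DR0 (0.45, adjusted p = 0.0243) and not called in DR1 (0.20).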

How the data were processed

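The deposited counts are whole reads per gene, which per the study's methods the authors obtained by aligning with STAR and counting with htseq-count without strand. The submitters' processing notes name STAR 2.73a and edgeR 3.24.3 and the WBcel235 build, and the sources differ on the sequencer. No row lacked a gene identifier. The 39 genes matched by symbol, and of 52 other pathway genes fnip-2 and slc-36.1 matched by identifier. Lengths and positions are from Ensembl release 115, where exons of 8 of the 39 genes overlap another gene on the opposite strand, by at most 107 bases.

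Counts were filtered with filterByExpr, scaled by TMM and tested with edgeR 4.0.16 (glmQLFit, glmQLFTest, R 4.3.3) in 1 fit of the 3 conditions, where the study used limma-voom. Benjamini-Hochberg adjustment covered all genes tested. Standard errors were taken from the F statistic, whose root is the ratio of a log2 fold change to its s.e. The common biological coefficient of variation was 6.58%. Each s.e. thus rests on the fit of all 9 libraries, in which the 3 conditions share 1 estimate of the spread per gene. A spread per condition was not fitted. For pairs of libraries of a condition, the chi-square of counts per degree of freedom was 3.15 to 8.42 in DR1, 2.24 to 2.38 in DR0 and 2.44 to 2.90 in AL. Correlations of log2 CPM were 0.985 to 0.988 in DR1, 0.983 to 0.985 in DR0 and 0.983 to 0.984 in AL. The scripts were tested on simulated data. Alternatives were limma-voom (limma 3.58.1) with TMM or quantile normalization, DESeq2 1.42.0, RLE and total-count scaling, no filter, mean CPM of at least 1 or 5, only the compared conditions, a replicate block, leaving out each library and, chosen after seeing the data, removal of a lowess trend on exonic length. The genes and lists were chosen with earlier results of these data known. Values per library are given for genes at both thresholds in any comparison, for the largest rise and fall of each role group in each comparison, and for *hlh-30*, *mxl-3*, *lgg-1*, *lgg-2*, *sqst-1*, *let-363* and *daf-15*. Other pathway genes are named where they passed both thresholds. The rest of those named with values were picked once their values had been seen, and *cln-3.2* is given beside its relatives.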

Additional observations from a re-analysis of the deposited data

How the results depend on the processing

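Under 20 alternatives, 16 of 17 higher calls and 4 of 8 lower calls in DR0 against AL, 17 of 18 and 4 of 6 in DR1 against AL, and 3 of 14 and 8 of 12 in DR0 against DR1 were kept in every one. Quantile normalization gave 28 genes higher, 4 upregulated and a median of 0.36 in DR1 against AL, 4 lower, 6 upregulated and a median of 0.31 in DR0 against AL, and a median of −0.11 in DR0 against DR1. Total-count scaling gave 32 higher, 4 upregulated, 0 downregulated and a median of 0.49 in DR1 against AL, and 6 higher, 24 lower and a median of −0.26 in DR0 against DR1. The median of the 39 less that of all genes was then 0.09 in DR0 against AL, 0.11 in DR1 against AL and 0.03 in DR0 against DR1. A mean CPM of at least 1 gave 2 upregulated in DR1, and one of at least 5 gave 2 upregulated and a median of 0.25 in DR1, a median of 0.20 in DR0 and 0.0033 in DR0 against DR1. Removal of the length trend gave medians of 0.24 in DR0 against AL and 0.075 in DR0 against DR1. Leaving out 1 library gave 1 to 2 upregulated in DR1 against AL, with 2 without DR1 replicate 2 and without AL replicate 1. It gave medians of −0.012 to 0.039 in DR0 against DR1, below 0 without DR0 replicate 1, DR0 replicate 2 or DR1 replicate 2.

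Among the 22 genes given by library, those that changed sign were, in DR1 against AL, *epg-6* (−0.000247 with no filter, −0.0016 to 0.038 without 1 library), *atg-3* (0.21 with quantile normalization, 0.33 with total counts, 0.0035 and 0.088 with the CPM minimums, 0.10 with the length trend removed, −0.054 to 0.041 without 1 library) and *daf-15* (−0.058 with the trend removed). In DR0 against AL they were *epg-7* (0.16 with quantile normalization, 0.031 with total counts, 0.048 with a mean CPM of at least 5, 0.12 with the trend removed, −0.078 to 0.048 without 1 library) and *let-363* (0.089 with quantile normalization). In DR0 against DR1 they were *atg-2* (0.12 with the trend removed), *atg-18* (−0.20 with quantile normalization, −0.26 with total counts), *epg-6* (−0.0083 with total counts), *lgg-1* (−0.31 with quantile normalization), *sqst-1* (−0.21 with quantile normalization, −0.14 with total counts), *hlh-30* (−0.020 with total counts), *ragc-1* (−0.0704 with quantile normalization, −0.24 with total counts, −0.054 with the trend removed, −0.0059 to 0.087 without 1 library) and *lmp-1* (−0.0034 with quantile normalization). Of the other 17 genes, 6 not called changed sign under at least 1 setting in each comparison. In DR0 against DR1 so did 3 that were called: *atg-9* (0.17, and −0.12 with total counts), *atg-4.1* (0.25, and −0.040 with total counts) and *epg-5* (−0.34, and 0.030 with the trend removed). The *atg-9* call there was lost under 10 of the 20, among them the fits without DR0 replicate 2, DR0 replicate 3, DR1 replicate 1 or DR1 replicate 3 (adjusted p from 0.0523 to 0.226). Beyond the choice of scaling or trend itself, the cause was not tested.

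The replicate number as a block gave 17 higher and 8 lower in DR0 against AL, 18 and 6 in DR1 against AL and 14 and 12 in DR0 against DR1, and changed no call. The numbers did not pair the libraries: deviations from the condition means correlated at −0.060 to 0.187 for the 9 pairs with the same number and at −0.174 to 0.137 for the 18 pairs with different numbers.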

Other observations

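The genes in this paragraph are not among the 39 and were picked once their values had been seen, from the list of 52 other pathway genes. *rab-7*, the small GTPase of late endosomes and lysosomes, averaged 243 ± 7.05 CPM in DR0, 150.4 ± 12.7 CPM in DR1 and 139 ± 3.06 CPM in AL (SD, n = 3 each), with a log2 fold change against AL of 0.80 in DR0 and 0.11 in DR1. The genes of the HOPS complex, to which active Rab7 binds, included some that were lower in DR0, with log2 fold changes of −0.53 for *vps-18*, −0.61 for *vps-33.1* and −0.44 for *vps-39*. *allo-1*, the receptor that clears paternal mitochondria in embryos, averaged 289.6 ± 6.73 CPM in DR0, 270.2 ± 6.78 CPM in DR1 and 164 ± 3.49 CPM in AL, while *pink-1* (−0.69 in DR0, −0.16 in DR1) and *pdr-1* (−0.77 in DR0, −0.67 in DR1), the PINK1 and Parkin orthologues, had log2 fold changes below 0. The DR1 value of *pink-1* was not called (adjusted p = 0.113). *mxl-2*, the partner of the Myc-like factor MML-1, averaged 81.5 ± 3.51 CPM in DR0, 48.2 ± 1.14 CPM in DR1 and 48.3 ± 4.35 CPM in AL. The Ragulator genes *lmtr-2*, *lmtr-3* and *lmtr-5*, whose products anchor Rag GTPases to the lysosome, were each lower in DR1 than in AL. Their log2 fold changes were −0.22, −0.54 and −0.55, and in DR0 against DR1 they were higher, by 0.60, 0.43 and 0.40. In DR0 against AL *lmtr-2* was higher (0.38), and *lmtr-3* and *lmtr-5* were not called. These genes, *rab-7* and *mxl-2* have 508 to 918 exonic bases, and the HOPS genes named 2026 to 3247. In DR0 against DR1 the median of all genes of 500 bases to under 1000 was 0.20. Total-count scaling moved the median of all genes in DR1 against AL from 0.03 to 0.38. The part of length and scaling in the values given here was not tested.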
